A study of Mus musculus with 6 samples.

Results

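Complement and coagulation factors are 42 genes for the cascade proteases, their substrates, lectins and inhibitors that the liver secretes into plasma. They were taken by gene symbol from an RNA-seq table of 51912 genes, with 21 genes of complement, 18 of clotting and 3 of fibrinolysis. All 42 symbols were found once, and all 42 passed the filter on low values (at least 1 TPM in at least 3 of 6 samples), which left 13325 genes tested. TPM (transcript abundance as a share of the library, scaled to the same total in each) corrects for transcript length, so levels of different genes can be set side by side but the depth behind them is unknown.

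The livers came from 21-day-old C57/B6 mice, nursed either by mothers given triclosan (TCS), an antimicrobial additive of consumer products, or by mothers given vehicle. GEO's labels give TCS as 120 ppm for the nursing period, while the methods place it in the mothers' chow during pregnancy and lactation, so exposure before birth and through milk cannot be told apart. There were 3 vehicle and 3 TCS samples, each a pool of 3 mice by the methods. The methods state that each treatment group drew on more than a single litter, but the litters in each pool are not given. The pools of a group may thus share litters, and p-values measure the spread between these pools.

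The pools departed from their description in sex. The methods state that RNA-seq used male neonates, yet Xist, the RNA that coats the inactive X chromosome of female cells, was at 46.4, 1.80 and 88.3 TPM in the vehicle samples and at 0.0144, 98.7 and 44.0 TPM in the TCS samples, thus above 40 TPM in 4 of 6 pools. The Y-linked transcripts Ddx3y, Eif2s3y, Kdm5d and Uty were above 0 in all 6 pools, so male RNA was present in each. Ddx3y was at 24.6, 34.7 and 12.2 TPM in vehicle and 31.9, 11.6 and 24.8 TPM in TCS. Pancreatic enzyme transcripts, summed over 6 markers, ran from 62.8 to 484 TPM in vehicle and from 9.90 to 466 TPM in TCS. Vehicle 3 and TCS 2 were highest both in Xist and in these pancreatic transcripts. Prss2, Cpa1 and Pnlip were listed at 0 in at least 1 pool. The 6 hepatocyte markers used summed to 154210 to 158850 TPM in vehicle and 130850 to 136540 TPM in TCS, with all 6 means lower in TCS. Of these, 3 were lower at an unadjusted p under 0.05 (against 3.5% of all genes tested) and 0 passed the adjusted threshold. All 6 hepatocyte markers were above 1000 TPM in vehicle, where 25% of all genes were lower at that unadjusted p. Summed Kupffer cell markers (225 to 270 TPM in vehicle, 230 to 291 in TCS) and platelet markers (9.67 to 12.9 and 9.27 to 11.6) overlapped between the groups. Summed erythroid markers did not overlap (4811 to 5236 TPM in vehicle, 4224 to 4721 in TCS), with 5 of 6 means lower in TCS. Of the 6 stellate cell and fibroblast markers, 3 were higher at an unadjusted p under 0.05 (Pdgfrb, Col1a1 and Col3a1, against 19.5% of all genes tested). Dcn, the most abundant of the 6, was lower (190 TPM in vehicle, 170 in TCS, against 3.5% of all genes). The sums of the 6 overlapped (300 to 328 and 307 to 333 TPM). The part of these markers in the results on the 42 genes was not tested. In bulk liver, fewer hepatocytes and a lower share of the hepatocyte marker transcripts within hepatocytes cannot be told apart.

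Complement is a proteolytic cascade of innate immunity. Antibody, through C1, or microbial sugars, through mannose-binding lectins and their MASP proteases, lead to cleavage of C4 and C2, which cleave C3, and C5 to C9 then assemble a pore in the target membrane. In clotting, the tissue factor and contact pathways converge on factor X and thrombin, thrombin turns fibrinogen into fibrin, antithrombin, heparin cofactor II and the protein C system hold it in check, and plasmin dissolves the clot. Hepatocytes make most of these proteins under liver-enriched factors such as HNF1, HNF4 and C/EBP, and interleukin-6 raises several of them in the acute phase, fibrinogen above all.

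As a whole, the 42 genes were close in level between the groups. They held 3.07%, 2.69% and 2.97% of all TPM in the vehicle samples and 2.81%, 2.66% and 2.76% in the TCS samples, so the groups overlapped. Limma's moderated test on log2(TPM + 1), with p-values adjusted over all genes tested, called 0 of the 42 at an adjusted p under 0.05, where it called 0.173% of all genes tested. Without adjustment, 2 of the 42 had p under 0.05 and were higher (Mbl1 and Masp1, against a background of 19.5% of all genes), and 2 were lower (Kng1 and F9, against 3.5%). The 3 TCS values lay above the 3 vehicle values for the same 2 higher genes (background 25.1%), and below them for 6 genes, Kng1, F9, F7, F12, F2 and Plg (background 4.61%). Of the 42 genes, 4.76% were thus higher without overlap and 14.3% lower without overlap. These backgrounds cover genes of all levels, and shares called at an unadjusted p under 0.05 by level are given below. These counts moved with single pools. Lower without overlap were 20 genes when vehicle 2 was left out (background in the same fit 7.05%) and 10 when TCS 1 was (6.44%), and higher without overlap were 7 when vehicle 3 was left out (37.5%) and 6 when TCS 2 was (29.7%). Without adjustment, 6 genes had p under 0.05 and were lower without vehicle 2 (background 3.37%), 4 were higher without TCS 2 (12.3%), and 1 was higher without vehicle 1 (13%) or without TCS 3 (11.9%).

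TPM are shares, and the median gene tested had a log2 fold change of 0.13, so that most genes stood higher in TCS. Against that median gene, 4 of the 42 genes (Mbl1, Masp1, C8a and C8b) lay above and 38 below. The median log2 fold change was -0.06 over the 42 genes, -0.19 relative to the median gene. It was -0.18 relative to the median gene in complement (17 of 21 genes below it), -0.23 in clotting (18 of 18 below) and -0.16 in fibrinolysis (3 of 3 below). After median-of-ratios rescaling, which sets the median gene close to 0, 1 gene was higher at an unadjusted p under 0.05 (Mbl1, background 8.31% of all genes) and 20 were lower (background 8.97%), 12 of 18 in clotting, 6 of 21 in complement and 2 of 3 in fibrinolysis. The 20 were F2, F5, F7, F9, F10, F11, F12, Kng1, Fgb, Proc, Pros1 and Serpinc1 in clotting, C1s1, Mbl2, Cfb, C8g, Cfi and Vtn in complement, and Plg and Serpinf2 in fibrinolysis. None of the 42 passed the adjusted threshold on that scale either, with a smallest adjusted p of 0.0812 for F9.

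The fold change also varied with the level of a gene. Among all genes at 1000 TPM or more in vehicle, 104 in number, the median log2 fold change was -0.12, and the 9 complement and coagulation genes in that range had -0.13. From 100 to 1000 TPM, 868 genes had a median of 0.07 and the 25 genes of the cascades -0.04, with 9 of the 25 above 0. From 10 to 100 TPM, 4996 genes had 0.14 and the 7 genes of the cascades -0.04. In the most abundant range the cascade genes thus lay near other genes of that level, and in both lower ranges their median lay below it. At an unadjusted p under 0.05 from limma, 25% of all genes at 1000 TPM or more were lower and 11.5% higher. The shares were 7.83% and 21.3% from 100 to 1000 TPM, and 4.42% and 25.3% from 10 to 100 TPM, in that order. Kng1, F2 and Plg, lower without overlap, were at 1000 TPM or more. Shares by level are not given for groups without overlap or for the rescaled values. The part of abundance in these differences and shares was not tested.

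**Figure D1:**
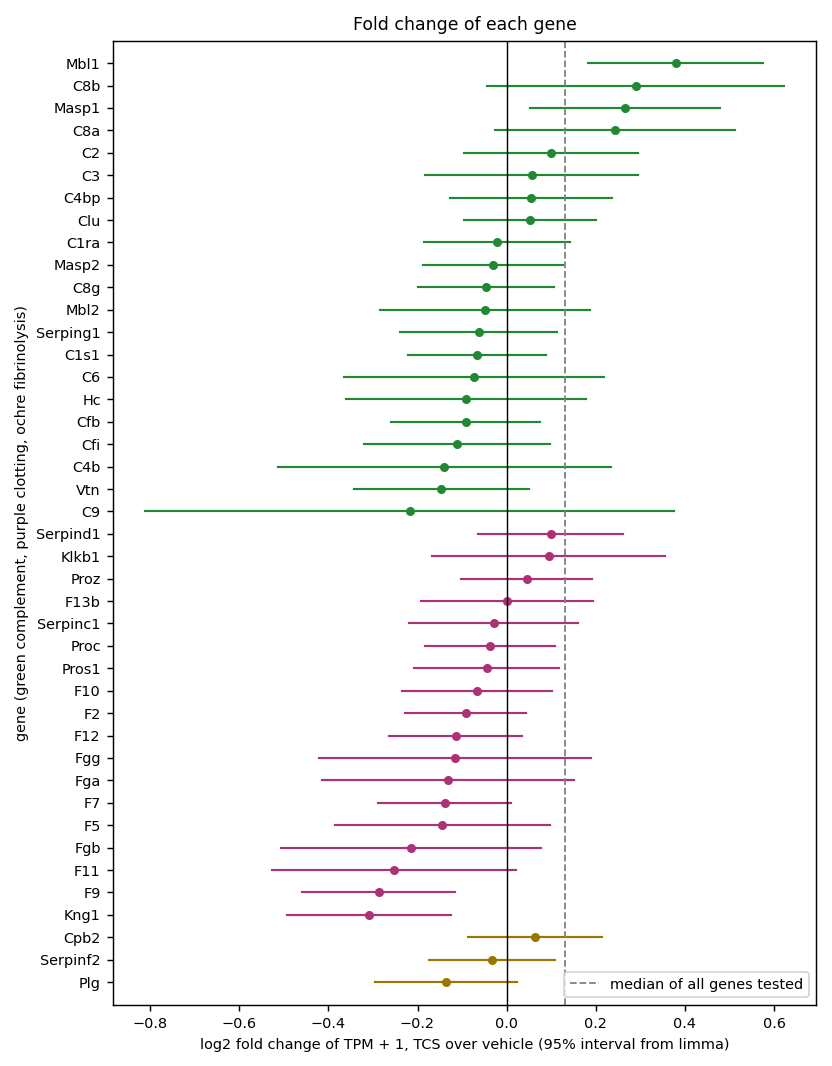
Log2 fold change of TPM + 1, TCS over vehicle, of each of the 42 genes (points) with its 95% interval from limma (bars), ordered within complement, clotting and fibrinolysis, n = 3 pools per group. Only Mbl1, Masp1, C8a and C8b lie right of the dashed line at 0.13, the median of all genes tested, and the 18 clotting genes all lie left of it.

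Levels in the vehicle livers spanned from 8.56 TPM for C6 to 3710 TPM for Fgg, with a median of 294 TPM over the 42 genes. The 9 genes at 1000 TPM or more were the fibrinogen chains Fgg, Fga and Fgb, C3, Serpinc1 (antithrombin), Kng1, Vtn (vitronectin), Plg (plasminogen) and F2 (prothrombin). The 8 genes under 100 TPM were Klkb1, F11, F7, C2, Masp1, Pros1, C9 and C6. Fgg and Fga at the top (3710 ± 626 and 3667 ± 537 TPM, SD, n = 3) did not differ beyond their spread. C3 (2927 ± 250) followed, and it exceeded Serpinc1 (2667 ± 177) within every pool of both groups.

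The coefficient of variation had a median of 6.31% in vehicle and 5.84% in TCS over the 42 genes, against 11.7% and 10.5% over all genes tested. Against genes of like level the difference was smaller. From 100 to 1000 TPM the medians were 5.42% in vehicle and 5.65% in TCS for the cascade genes and 8.09% and 6.37% for all genes, and from 10 to 100 TPM they were 8.53% and 6.54% against 8.78% and 8.17%. The coefficient exceeded 15% in vehicle for 4 genes, Fgg, Fgb, C4b and C9, of which C9 had 26.7%. The 95% interval of the log2 fold change lay within 0.25 of 0 for 16 genes and within 0.5 for 35, and it lay inside a 1.5-fold change in either direction for 40 of the 42, all but C8b and C9. A p that misses the threshold does not show that the groups were equal.

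**Figure D2:**
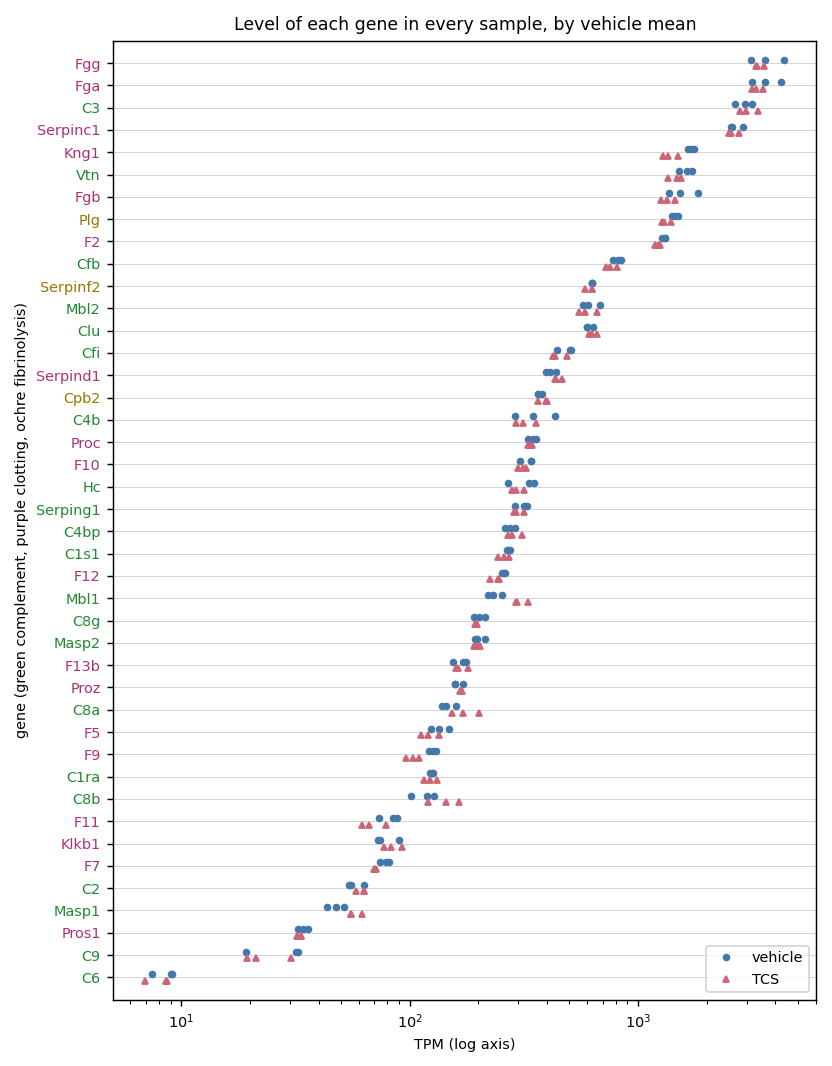
TPM of each of the 42 genes on a log axis in the 3 vehicle pools (circles) and the 3 TCS pools (triangles), ordered by the vehicle mean from C6 at 8.56 TPM to Fgg at 3710 TPM. Circles and triangles overlap for most genes.

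Among the genes that start complement, the lectin pathway held the highest fold changes. Mbl1 (ENSMUSG00000037780, chr14:41151458-41159601, plus strand), mannose-binding lectin A, which recognises microbial sugars, was at 231, 221 and 254 TPM in the vehicle samples and at 292, 297 and 330 TPM in the TCS samples. The 3 TCS pools all lay above the 3 vehicle pools, and the means were 235 ± 16.9 and 306 ± 20.6 TPM, 30.2% apart (log2 fold change 0.38, SE 0.08, adjusted p = 0.0973 from limma). With array weights, which let limma give less reproducible samples less influence, Mbl1 passed the threshold (adjusted p = 0.0360, background 7.55% of all genes higher), with adjusted p between 0.0360 and 0.2985 over all alternatives. Masp1 (ENSMUSG00000022887, chr16:23449417-23520815, minus strand), a protease that travels with these lectins, was at 43.4, 47.9 and 51.5 TPM in vehicle and at 55.2, 55.2 and 61.7 TPM in TCS. Its groups did not overlap either (log2 fold change 0.27, SE 0.09, adjusted p = 0.159). After median-of-ratios rescaling the groups of Masp1 overlapped, with a log2 fold change of 0.12 (unadjusted p = 0.133 from limma), and after quantile normalization they overlapped with 0.13.

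Their closest partners had fold changes near 0. Mbl2, the other mannose-binding lectin, had 622 ± 55.6 TPM in vehicle and 601 ± 56.2 in TCS (log2 fold change -0.05), and Masp2, the protease that cleaves C4 and C2, had 202 ± 10.6 and 198 ± 6.51 TPM (-0.03). C2, the protease subunit of the classical and lectin C3 convertase, was at 54.2, 62.9 and 55.3 TPM in vehicle and 63.3, 58.3 and 63.0 in TCS. These values overlapped, and the log2 fold change of C2 was 0.10 (adjusted p = 0.482), -0.05 after median-of-ratios rescaling and -0.03 after quantile normalization. The C1 proteases C1ra and C1s1 and the C1 substrate C4b had log2 fold changes between -0.14 (C4b) and -0.02 (C1ra). C4b, C1ra and C1s1 have near-identical copies in the mouse genome, among which uniquely aligned reads may be unevenly divided, so their levels are uncertain. The copies had low mean levels, at 9.34 TPM in vehicle and 9.18 TPM in TCS for C4a. C1rb was at 0.0411 and 0.0428 TPM and C1s2 at 0.0129 and 0.0169 TPM, in the same order.

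C3, on which all complement pathways meet, was at 2940, 2670 and 3170 TPM in vehicle and 2800, 2980 and 3350 TPM in TCS. The groups overlapped, with a log2 fold change of 0.06 and a 95% interval from -0.18 to 0.30 (adjusted p = 0.754), and the value was -0.10 after median-of-ratios rescaling, -0.01 without vehicle 2 and -0.02 without TCS 3. Cfb, factor B, the protease of the alternative pathway's C3 convertase, was at 842, 776 and 821 TPM in vehicle and 810, 725 and 755 TPM in TCS, also with overlap (log2 fold change -0.09, adjusted p = 0.450). Cfb and C2 lie next to each other on chr17, 85 bases apart.

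In the terminal pathway, the genes of 2 chains of C8 had higher means in TCS and the third did not, and none passed the threshold. C8 is made of an alpha, a beta and a gamma chain, and it anchors the membrane attack complex in the lipid bilayer. C8a, the alpha chain, was at 160, 139 and 144 TPM in vehicle and 201, 154 and 172 TPM in TCS (log2 fold change 0.24, SE 0.11, adjusted p = 0.249). C8b, the beta chain, was at 119, 102 and 128 TPM in vehicle and 165, 120 and 144 TPM in TCS (log2 fold change 0.29, SE 0.14, adjusted p = 0.261). For both, TCS 2 fell inside the vehicle range and TCS 1 was the highest pool. Without TCS 1 the log2 fold changes were 0.14 for C8a and 0.18 for C8b, and after median-of-ratios rescaling they were 0.09 and 0.14, with array weights 0.09 and 0.10. C8g, the gamma chain, had 202 ± 11.1 and 196 ± 2.52 TPM (log2 fold change -0.05). The remaining terminal genes Hc (complement C5), C6 and C9 had log2 fold changes from -0.22 to -0.07, and C9 varied most, with a 95% interval from -0.81 to 0.37.

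C8a and C8b are neighbours on mouse chr4, with 11130 bases between them and 110 kb from end to end. Their promoter windows are shown because the 2 genes are adjacent and had similar fold changes. Each runs from 250 bases before to 50 bases after the RefSeq gene start (GRCm38.p6), with capitals for matches to 5 short motifs searched on both strands, the HNF1 motif GTTAAT, the C/EBP core TTGCAA, the interleukin-6 response element core CTGGGAA, the HNF4 core AAAGTCC and the TATA box TATAAA.
C8a, chr4:104876349-104876648, minus strand: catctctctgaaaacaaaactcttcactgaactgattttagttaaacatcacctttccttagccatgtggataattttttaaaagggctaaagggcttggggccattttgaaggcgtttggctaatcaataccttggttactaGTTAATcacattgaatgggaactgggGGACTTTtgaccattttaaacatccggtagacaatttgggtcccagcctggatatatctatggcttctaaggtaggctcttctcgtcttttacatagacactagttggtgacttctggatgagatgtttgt
C8b, chr4:104766067-104766366, plus strand: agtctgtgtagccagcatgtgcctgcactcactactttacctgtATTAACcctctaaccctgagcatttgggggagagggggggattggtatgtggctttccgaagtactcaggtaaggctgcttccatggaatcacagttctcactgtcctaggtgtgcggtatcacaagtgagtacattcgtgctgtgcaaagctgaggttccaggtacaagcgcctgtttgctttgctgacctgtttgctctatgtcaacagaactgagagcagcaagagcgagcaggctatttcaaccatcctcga
Each window holds 1 HNF1 motif, at positions -107 to -102 in C8a and -206 to -201 in C8b, and C8a also holds an HNF4 core at -81 to -75.

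Of the 42 genes, 32 had a window in the RefSeq table, and the HNF1 motif stood in 11 of the 32 (34.4%), against 8.24% of 27025 genes. The interleukin-6 response element core stood in 7 (21.9%, against 12.7%), the C/EBP core in 4 (12.5%, against 7.09%), the HNF4 core in 2 (6.25%, against 4.84%) and the TATA box in 4 (12.5%, against 15.7%). The HNF1 motif was therefore the motif most over its background share among these 5. A match is a description of letters in a window and not a binding site.

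Of the complement regulators, none was called on the deposited scale. Vtn, vitronectin, which binds the nascent membrane attack complex, was at 1720, 1510 and 1640 TPM in vehicle and 1490, 1360 and 1550 TPM in TCS (log2 fold change -0.15, adjusted p = 0.316). The groups overlapped, since TCS 3 exceeded vehicle 2. After median-of-ratios rescaling the groups of Vtn did not overlap, with a log2 fold change of -0.30 (unadjusted p = 0.0156), and Cfi had -0.26 (unadjusted p = 0.0444). Cfi (factor I, which inactivates C3b and C4b), Serping1 (C1 inhibitor), C4bp (C4-binding protein) and Clu (clusterin) had log2 fold changes from -0.11 to 0.05, and all 5 regulators lay below the median gene.

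Of the fibrinogen chains, Fgg and Fga were the most abundant of all 42 genes, and Fgb stood below C3, Serpinc1, Kng1 and Vtn. Fga, Fgb and Fgg, which encode the alpha, beta and gamma chains of the protein that thrombin turns into fibrin, lie together on chr3 within 42.1 kb. Fga was at 4230, 3160 and 3610 TPM in vehicle and 3530, 3290 and 3160 TPM in TCS (log2 fold change -0.13, adjusted p = 0.516). Fgb was at 1840, 1370 and 1530 TPM in vehicle and 1460, 1340 and 1260 TPM in TCS (log2 fold change -0.22, 95% interval -0.51 to 0.08, adjusted p = 0.321). Fgg was at 4380, 3140 and 3610 TPM in vehicle and 3570, 3320 and 3290 TPM in TCS (log2 fold change -0.12, adjusted p = 0.597). All 3 chains overlapped between groups, and vehicle 1 was the highest and vehicle 2 the lowest vehicle pool for each. The log2 fold changes depended on these 2 pools. Without vehicle 1 they were -0.02 for Fga, -0.10 for Fgb and 0.01 for Fgg, and without vehicle 2 they were -0.23, -0.31 and -0.23.

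The promoter windows of the 3 chains are shown because the 3 genes are adjacent and shared their highest and lowest vehicle pools, with the same capitals as for C8a and C8b.
Fga, chr3:83025903-83026202, plus strand: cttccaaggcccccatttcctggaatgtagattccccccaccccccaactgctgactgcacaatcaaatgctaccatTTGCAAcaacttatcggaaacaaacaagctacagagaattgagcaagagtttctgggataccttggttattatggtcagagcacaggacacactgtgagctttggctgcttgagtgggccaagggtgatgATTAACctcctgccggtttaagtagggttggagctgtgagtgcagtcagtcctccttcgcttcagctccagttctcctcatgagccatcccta
Fgb, chr3:83049814-83050113, minus strand: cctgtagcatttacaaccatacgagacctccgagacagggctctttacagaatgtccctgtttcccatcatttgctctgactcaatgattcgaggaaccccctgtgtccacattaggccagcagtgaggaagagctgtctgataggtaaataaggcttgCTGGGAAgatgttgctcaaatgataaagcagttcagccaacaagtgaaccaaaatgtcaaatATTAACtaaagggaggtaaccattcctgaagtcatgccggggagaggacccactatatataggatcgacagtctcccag
Fgg, chr3:83007474-83007773, plus strand: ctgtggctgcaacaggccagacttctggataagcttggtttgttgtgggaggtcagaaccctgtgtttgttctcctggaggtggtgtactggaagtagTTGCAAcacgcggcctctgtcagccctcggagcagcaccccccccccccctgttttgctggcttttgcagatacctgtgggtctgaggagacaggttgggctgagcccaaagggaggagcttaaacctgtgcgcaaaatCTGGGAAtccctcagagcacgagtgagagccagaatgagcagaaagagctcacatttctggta
Fga holds a C/EBP core at -173 to -168 and an HNF1 motif at -43 to -38. Fgb holds an interleukin-6 response element core at -91 to -85 and an HNF1 motif at -29 to -24. Fgg holds a C/EBP core at -152 to -147 and an interleukin-6 response element core at -13 to -7.

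F9 was the lowest of the vitamin K-dependent protease genes relative to vehicle. Factor IX (F9, ENSMUSG00000031138, chrX:59999464-60030759, plus strand), which activates factor X on platelet surfaces, was at 127, 130 and 122 TPM in vehicle and 104, 96.4 and 110 TPM in TCS. Every TCS pool lay below every vehicle pool, with means of 126 ± 4.04 and 103 ± 6.82 TPM (log2 fold change -0.29, SE 0.07, adjusted p = 0.110). F9 passed the threshold with array weights (adjusted p = 0.0340, background 1.76% of all genes lower), and its adjusted p ran from 0.0340 to 0.3562 over all alternatives. F9 lies on the X chromosome, in pools that differed in Xist, and with Xist as a covariate its log2 fold change was -0.29.

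F7 and F2 also did not overlap between groups, at smaller differences. F7, factor VII, which starts clotting with tissue factor, was at 81.3, 74.4 and 78.7 TPM in vehicle and 70.2, 71.4 and 70.8 TPM in TCS (log2 fold change -0.14, adjusted p = 0.236). F2 had 1300 ± 17.3 and 1220 ± 30.0 TPM (log2 fold change -0.09, adjusted p = 0.357). F10, the factor X gene, F5, the cofactor of factor X, and F13b, the carrier of the fibrin cross-linking enzyme, had log2 fold changes of -0.07, -0.14 and 0.00, each with overlapping groups. Summed over this pathway of 6 genes, the share of all TPM was 0.211% to 0.215% in vehicle and 0.196% to 0.205% in TCS.

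The promoter window of F9 is shown since F9 was the lower gene with the smallest adjusted p after rescaling. Its only capitals are an interleukin-6 response element core on the opposite strand at -82 to -76.
F9, chrX:59999214-59999513, plus strand: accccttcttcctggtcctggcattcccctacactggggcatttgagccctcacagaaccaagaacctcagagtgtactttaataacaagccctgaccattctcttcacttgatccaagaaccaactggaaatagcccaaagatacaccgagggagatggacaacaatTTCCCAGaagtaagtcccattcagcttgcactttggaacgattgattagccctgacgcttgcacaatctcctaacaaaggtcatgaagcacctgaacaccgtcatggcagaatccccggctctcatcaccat
No other motif of the 5 was present in these letters.

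The contact system held the lowest fold change. Kng1 (ENSMUSG00000022875, chr16:23057865-23082078, plus strand), the kininogen from which plasma kallikrein releases bradykinin, was at 1660, 1700 and 1760 TPM in vehicle and 1500, 1350 and 1290 TPM in TCS. The groups did not overlap, and the means were 1707 ± 50.3 and 1380 ± 108 TPM (log2 fold change -0.31, SE 0.08, adjusted p = 0.110). With array weights Kng1 passed the threshold (adjusted p = 0.0363), with a range from 0.0363 to 0.3918 over all alternatives. Its near copy Kng2 on the same chromosome, which is not among the 42 genes, was at 284, 293 and 306 TPM in vehicle and 248, 256 and 233 TPM in TCS (log2 fold change -0.26, adjusted p = 0.111). The levels of the pair are uncertain, since uniquely aligned reads may be divided unevenly between near-identical copies.

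F11, factor XI, which activates factor IX, was at 88.1, 73.6 and 84.5 TPM in vehicle and 61.9, 66.2 and 78.6 TPM in TCS, with TCS 3 above vehicle 2 (log2 fold change -0.25, adjusted p = 0.243). F12, factor XII, which starts the contact pathway on charged surfaces, was at 263, 254 and 260 TPM in vehicle and 245, 226 and 247 TPM in TCS, without overlap (log2 fold change -0.11, adjusted p = 0.304). Klkb1, plasma prekallikrein, had 79.0 ± 9.40 and 84.2 ± 7.60 TPM (log2 fold change 0.09). Together the 4 contact genes took 0.209%, 0.210% and 0.219% of TPM in vehicle and 0.188%, 0.173% and 0.171% in TCS, most of it Kng1.

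**Figure D3:**
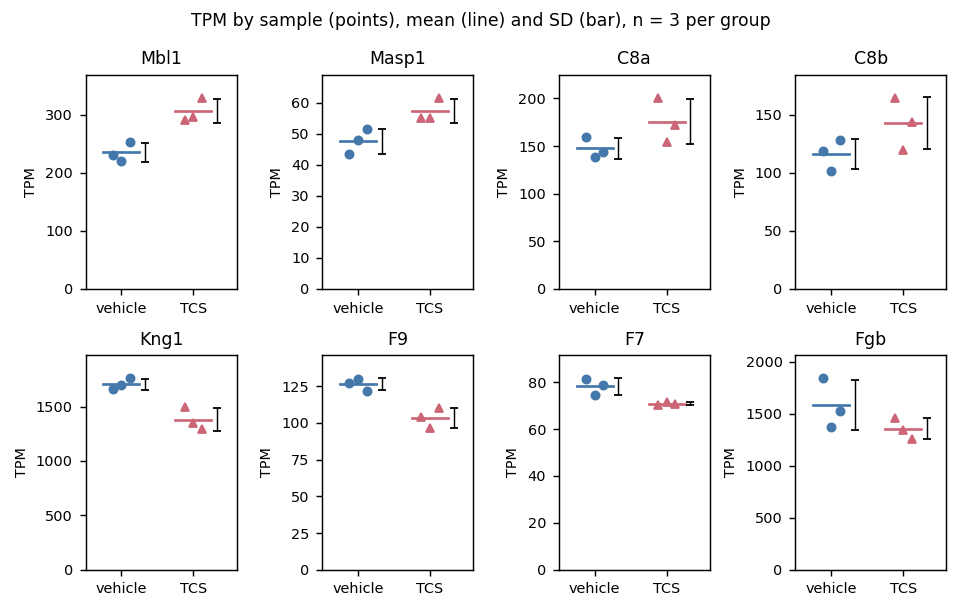
TPM of 8 genes in each pool, vehicle (circles) and TCS (triangles), with the group mean as a line and the SD as a bar beside it, n = 3 per group and axes from 0. The TCS pools lie above vehicle for Mbl1 and Masp1 and below it for Kng1, F9 and F7, while C8a, C8b and Fgb overlap.

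Of the inhibitors of clotting, none was called on the deposited scale. Serpinc1, antithrombin, which inhibits thrombin and factor Xa, was at 2580, 2550 and 2870 TPM in vehicle and 2550, 2510 and 2780 TPM in TCS (log2 fold change -0.03, 95% interval -0.22 to 0.16, adjusted p = 0.842), with 0.03 without vehicle 3. Serpind1, heparin cofactor II, another thrombin inhibitor, was at 414, 394 and 439 TPM in vehicle and 434, 436 and 465 TPM in TCS. Its groups overlapped through vehicle 3, and its log2 fold change of 0.10 (adjusted p = 0.403) was -0.05 after median-of-ratios rescaling. Proc (protein C), Pros1 (protein S) and Proz (protein Z), the vitamin K-dependent inhibitors or their cofactors, had log2 fold changes of -0.04, -0.04 and 0.04 with overlapping groups. After median-of-ratios rescaling the groups did not overlap for Proc (-0.19, unadjusted p = 0.0371), Pros1 (-0.19, unadjusted p = 0.0244), Proz (-0.11, unadjusted p = 0.118) and Serpinc1 (-0.18, unadjusted p = 0.0478).

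In fibrinolysis, Plg, the zymogen of the clot-dissolving protease plasmin, was at 1500, 1410 and 1450 TPM in vehicle and 1400, 1300 and 1270 TPM in TCS. The highest TCS pool lay just below the lowest vehicle pool (log2 fold change -0.14, adjusted p = 0.267). Serpinf2, alpha-2-antiplasmin, which inhibits plasmin, was at 630, 627 and 630 TPM in vehicle and 629, 586 and 630 TPM in TCS (log2 fold change -0.03, adjusted p = 0.751). Cpb2, a carboxypeptidase that removes plasminogen-binding sites from fibrin, was at 367, 364 and 382 TPM in vehicle and 397, 367 and 400 TPM in TCS. The groups of Cpb2 overlapped, and its log2 fold change of 0.06 (adjusted p = 0.558) was -0.09 after median-of-ratios rescaling.

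Ratios of genes within 1 pool do not depend on the scaling of the pool. For 14 pairs of partner genes, chosen after the values had been seen, the ratio of TPM was compared by an exact permutation test (two-sided), in which 3 pools against 3 cannot give a p below 0.1. None could therefore pass the threshold, the smallest Benjamini-Hochberg adjusted p was 0.233, and the ratios are given as a description. Mbl1 to Mbl2 was 0.400, 0.366 and 0.371 in vehicle and 0.497, 0.537 and 0.498 in TCS (exact p = 0.1). Masp1 to Masp2 was 0.224, 0.224 and 0.260 in vehicle and 0.271, 0.289 and 0.312 in TCS (exact p = 0.1).

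For chains of 1 protein, C8b to C8g was 0.592, 0.531 and 0.598 in vehicle and 0.855, 0.606 and 0.735 in TCS (exact p = 0.1), whereas C8b to C8a overlapped. Fgb to Fga was 0.435, 0.434 and 0.424 in vehicle and 0.414, 0.407 and 0.399 in TCS (exact p = 0.1), a log2 difference of -0.08. Fgg to Fga overlapped (1.04, 0.994 and 1.00 against 1.01, 1.01 and 1.04, exact p = 0.5). Klkb1 to F11, adjacent genes on chr8, was 0.841, 0.992 and 1.06 in vehicle and 1.25, 1.25 and 1.18 in TCS (exact p = 0.1). The C1ra to C1s1 ratio was also higher, at 0.462, 0.470 and 0.457 against 0.484, 0.475 and 0.475, a small log2 difference of 0.05. Kng1 to Kng2, F9 to F10, F7 to F10, Proz to F10, C8a to C8g and C2 to Cfb overlapped.

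**Figure D4:**
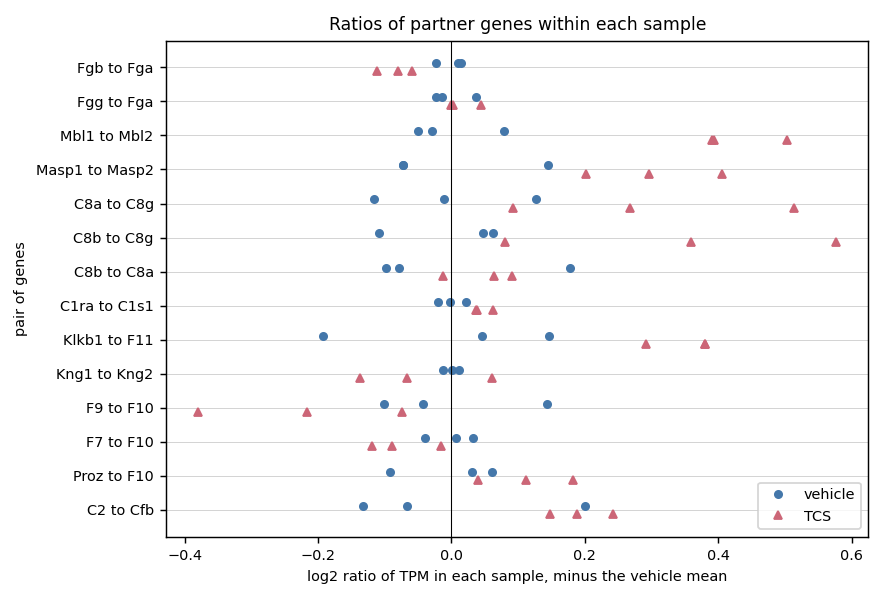
Log2 ratio of TPM of 14 partner pairs in each pool, with the vehicle mean of the pair subtracted, for vehicle (circles) and TCS (triangles). Triangles lie right of all circles for Mbl1 to Mbl2, Masp1 to Masp2, C8b to C8g, C1ra to C1s1 and Klkb1 to F11, and left of them for Fgb to Fga.

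Other genes of the same systems gave 0 calls at the adjusted threshold. Of 23 further complement genes, 16 were tested, and 0 had an unadjusted p under 0.05. After median-of-ratios rescaling 9 of the 16 were lower at an unadjusted p under 0.05 (background 8.97%), and after quantile normalization 7 were (background 8.28%), with 0 past the adjusted threshold on either scale. Of 16 further clotting genes, 13 were tested, and 2 were higher (15.4%, background 19.5%) and 1 was lower (7.69%, background 3.5%) at an unadjusted p under 0.05. The 2 higher genes act in the secretory pathway of clotting factors. Ggcx, the vitamin K-dependent carboxylase of factors II, VII, IX and X, was at 28.8, 27.0 and 32.0 TPM in vehicle and 37.8, 39.1 and 40.1 TPM in TCS (log2 fold change 0.41, SE 0.08, adjusted p = 0.0922). Lman1, the receptor that carries factors V and VIII out of the endoplasmic reticulum, was at 107, 103 and 114 TPM in vehicle and 135, 130 and 144 TPM in TCS (log2 fold change 0.33, SE 0.07, adjusted p = 0.0949). Mcfd2, the cofactor of Lman1 and named after its values were seen, had 192 ± 7.51 and 207 ± 6.66 TPM without overlap (log2 fold change 0.11, -0.04 after median-of-ratios rescaling). The lower gene was Kng2. Of 7 further fibrinolysis genes, 5 were tested. Plau, urokinase, was at 1.24, 1.93 and 1.52 TPM in vehicle and 2.05, 2.59 and 2.23 TPM in TCS. Its means were 1.56 ± 0.347 and 2.29 ± 0.275 TPM (log2 fold change 0.37, adjusted p = 0.199).

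Of 14 regulators of hepatic plasma protein genes, all 14 were tested, 0 passed the adjusted threshold, 0 were higher (background 19.5%) and 3 were lower (21.4%, background 3.5%) at an unadjusted p under 0.05. With array weights the 3 lower genes passed the adjusted threshold (background 1.76%), at an adjusted p of 0.0161 for Il6ra, 0.0363 for Cebpb and 0.0443 for Cebpd, as did Ggcx (0.0285) and Lman1 (0.0425) among the clotting genes (background 7.55%). Il6ra, the interleukin-6 receptor chain, was at 35.8, 40.8 and 26.8 TPM in vehicle and 14.4, 13.7 and 15.9 TPM in TCS (log2 fold change -1.16, SE 0.16, adjusted p = 0.0558). Cebpb, a C/EBP factor of the acute phase, was at 37.4, 31.9 and 35.5 TPM in vehicle and 25.8, 25.4 and 20.0 TPM in TCS (log2 fold change -0.54, SE 0.12, adjusted p = 0.0977). The 3 TCS pools lay below the 3 vehicle pools for both. Cebpd, the remaining lower gene and named after its values were seen, had 1.997 ± 0.344 and 1.04 ± 0.210 TPM (log2 fold change -0.55, adjusted p = 0.119). The signal-transducing chain Il6st had 28.0 ± 1.29 and 29.4 ± 1.45 TPM, and Stat3, the factor it activates, 47.8 ± 5.88 and 44.9 ± 1.25 TPM, both with overlap and also named after their values were seen.

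**Figure D5:**
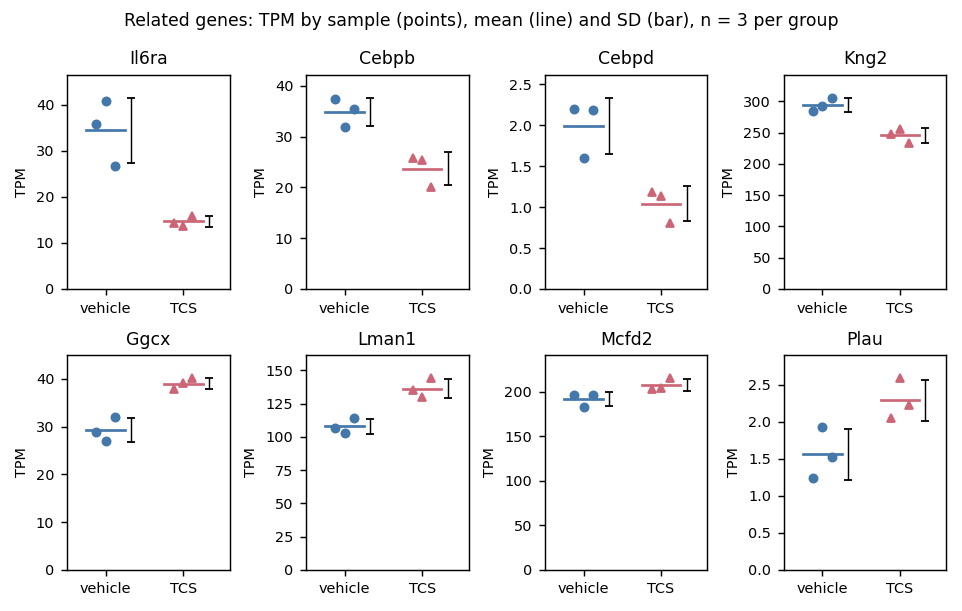
TPM of 8 genes outside the 42, 3 regulators (Il6ra, Cebpb and Cebpd) and 5 genes of kinin release, factor processing or fibrinolysis, in each pool of vehicle (circles) and TCS (triangles), with the group mean as a line and the SD as a bar, n = 3 per group. The groups do not overlap in any panel. None of the 8 genes passed the adjusted threshold in the main fit, after median-of-ratios rescaling or after quantile normalization. With array weights Il6ra, Cebpb, Cebpd, Ggcx and Lman1 passed, and the other alternatives are not given for these genes.

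Without vehicle 3 and TCS 2, the pools highest in Xist and pancreatic transcripts, 0 of the 42 genes passed the adjusted threshold, 3 were higher (background in the same fit 11.4%) and 1 was lower (2.64%) at an unadjusted p under 0.05, and 11 were higher (41.9%) and 6 lower (9.09%) without overlap of 2 against 2 pools. With Xist as a covariate, 0 passed the adjusted threshold and 2 were higher (background 21.4%) and 2 lower (3.63%) at an unadjusted p under 0.05.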

How the data were processed

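Liver RNA-seq of 6 pooled samples was analysed. Per the labels and methods, the authors sequenced TruSeq libraries on an Illumina NovaSeq. The submitters' processing notes name bcl2fastq (2.17.1.14), STAR (2.2.0c) and HOMER with the build mm10, and the methods limit quantification to reads with 1 alignment, over RefSeq exons. The authors deposited TPM by Ensembl gene, to 3 significant digits, and the step from the HOMER values to TPM is not given in the sources used here. TPM keep no depth, so counting error could not be assessed. Table columns carry the group and a number, not a single sample's label. A second sheet holds the authors' own fold changes and adjusted p-values, and it was not used.

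After genes under 1 TPM in more than 3 samples had been left out, limma 3.58.1 was fitted to log2(TPM + 1) (R 4.3.3; variance trend, no covariate, Benjamini-Hochberg over 13325 genes, threshold 0.05), and fold changes are on that scale, which understates low genes. The fit was tested on simulated data. Values in every sample were given for the up to 6 genes in each direction with the smallest p, the 3 most abundant complement and clotting genes in vehicle, all fibrinolysis genes and the fibrinogen chains, and of each related list for up to 2 genes in each direction with the smallest unadjusted p under 0.05. The 42 genes and the lists were chosen with earlier results of these data known, and ratios after the values were seen. Gene coordinates are GENCODE M21 (GRCm38), and promoter windows are RefSeq (GRCm38.p6). Python 3.11.15, pandas 2.3.3 and scipy 1.17.1 were used for the rest. Alternatives were another pseudocount and filter, rescaling, quantile normalization, no trend, array weights, protein-coding genes alone, a replicate block, each pool left out, and, chosen after seeing the data, Xist as a covariate and leaving out vehicle 3 and TCS 2.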

Additional observations from a re-analysis of the deposited data

How the results depend on the processing

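Of the 21 genes whose values are given by sample, all 21 kept their direction and side of the threshold with a pseudocount of 0.1, no filter, a filter of 5 TPM, no trend, protein-coding genes alone, the replicate block and Xist as a covariate. Array weights brought Mbl1, Kng1 and F9 past the threshold, thus 1 higher and 2 lower of the 42 genes. Direction turned with median-of-ratios rescaling for Serpind1 (-0.054), C2 (-0.052), C3 (-0.097) and Cpb2 (-0.089), with quantile normalization for C2 (-0.025) and Fgg (0.010), and without vehicle 3 and TCS 2 for Serpinc1 (0.054) and Serpinf2 (0.0023), while C3 had 0.128. With single pools left out, the log2 fold change ran from -0.015 to 0.12 for C3, from -0.23 to 0.010 for Fgg, from -0.074 to 0.025 for Serpinc1 and from -0.051 to 0.0011 for Serpinf2. The cause was not tested for any of these.

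Over all genes tested, 11 were higher and 12 lower at the adjusted threshold. The counts were 0 and 0 without a filter, 35 and 24 with the filter of 5 TPM, 1006 and 234 with array weights, 73 and 42 for protein-coding genes alone, 1 and 3 with Xist as a covariate, 0 and 0 without vehicle 3 and TCS 2, and 20 lower with quantile normalization. Leaving out single pools gave 0 to 22 higher and 0 to 13 lower. The number of genes tested also differed between filters, and the cause of these changes was not tested.

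Shares over all genes in the same fit are in parentheses. Of the 42 genes at an unadjusted p under 0.05, 1 was higher after median-of-ratios rescaling (8.31%) and 1 after quantile normalization (8.71%), and 1 to 4 with single pools left out. Lower were 20 after median-of-ratios rescaling (8.97%), 7 after quantile normalization (8.28%), 11 with array weights (5.15%), 1 without vehicle 3 and TCS 2 (2.64%), and 2 to 6 with single pools left out. Without overlap, 1 was higher after median-of-ratios rescaling (11.6%), 1 after quantile normalization (12.3%), 11 without vehicle 3 and TCS 2 (41.9%), and 2 to 7 with single pools left out, and 21 were lower after median-of-ratios rescaling (12.5%) and 6 to 20 with single pools left out.

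The median log2 fold change relative to all genes stayed below 0 for the 42 genes, complement, clotting and fibrinolysis under every alternative run. Without a filter it was -0.091, -0.083, -0.14 and -0.069, in that order, and after quantile normalization it was -0.12 in complement, -0.12 in clotting and -0.045 in fibrinolysis, where array weights gave -0.22. With single pools left out it ran from -0.27 to -0.18 in clotting and from -0.21 to -0.13 in fibrinolysis.

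The labels and methods do not say how the pools were numbered, and the main fit used no pairing. Deviations of same-numbered pools correlated at -0.01, -0.25 and -0.07. With 3 pools per group these correlations cannot show whether the numbers pair samples. With the replicate block, 0 genes were higher and 0 lower at the adjusted threshold, and 4 of the 42 genes were higher at an unadjusted p under 0.05 (19.7% of all genes). The unknown depth and 3 pools per group limit every value.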

Other observations

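Replicate 1 was the highest pool of its group for the fibrinogen chains, C4b and Fgl1, genes chosen after their values were seen. C4b was at 433, 290 and 349 TPM in vehicle and 357, 313 and 293 TPM in TCS. Fgl1, a fibrinogen-like secreted protein of hepatocytes, was at 1290, 645 and 797 TPM in vehicle and 980, 710 and 691 TPM in TCS. The range over the vehicle pools was larger than the difference between the group means for each of these genes, and C9 did not follow the same order, at 31.8, 19.3 and 32.6 TPM in vehicle and 30.4, 21.2 and 19.4 TPM in TCS. Among the 42 genes, replicate 1 was also the highest pool of both groups for Hc, C6, C8a, Cfb, Serping1 and Plg. A high replicate 1 was thus not particular to the fibrinogen chains, C4b and Fgl1.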
